A study of Caenorhabditis elegans with 8 samples.

Results

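The 10 genes described here encode small heat shock proteins of Caenorhabditis elegans, and they were followed in both dye channels of 8 microarrays that carry probes for 18877 genes. They were chosen by gene symbol and comprise *hsp-16.1* (T27E4.8), *hsp-16.2* (Y46H3A.3), *hsp-16.41* (Y46H3A.2), *hsp-16.48* (T27E4.3), *hsp-17* (F52E1.7), *hsp-12.2* (C14B9.1), *hsp-12.3* (F38E11.1), *hsp-12.6* (F38E11.2), *hsp-43* (C14F11.5) and *sip-1* (F43D9.4). Of these, the 4 *hsp-16* genes were set against the 6 others, a division made with their strong variation in these data already known. All 10 were measured by 1 probe each, and every probe was well above background in both channels of all 8 arrays.

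Small heat shock proteins share an alpha-crystallin domain and hold unfolded proteins without using ATP, so that these do not aggregate. The *hsp-16* genes are the classical heat-inducible set of the worm and are driven by the heat shock factor HSF-1, and lowered insulin-like signaling through the DAF-2 receptor and the AGE-1 phosphoinositide 3-kinase raises several small heat shock genes through HSF-1 and the FOXO factor DAF-16. Others in the family are made without heat, in muscle, hypodermis or the germ line.

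Each array set whole-animal RNA of 1 mutant strain in the Cy3 dye against RNA of wildtype N2, of similar or slightly later stage, in the Cy5 dye. The mutants were *age-1(mg44)* null animals (2 arrays), CY262 (3 arrays) and CY251 (3 arrays). The *age-1(mg44)* animals were zygotic homozygotes from heterozygous mothers of SP75, a strain that carries *age-1(mg44)* with *sqt-1(sc13)* over the balancer *mnC1*, so that maternal *age-1* product had been supplied. CY262 carried *sqt-1(sc13) age-1(mg44)* with the transgene *bvIs1*, which restricts *age-1* to the intestine, and CY251 carried the same alleles with *bvIs2*, which restricts it to neurons. All 3 mutant groups therefore shared *age-1(mg44)* and *sqt-1(sc13)*, which N2 lacks, and each transgenic group is 1 integrated line. Hermaphrodites were hatched into L1 arrest, then fed for 72 h at 20 °C until late L4 or young adulthood. The comparison of *age-1(mg44)* with wildtype asks which transcripts depend on *age-1*, and the comparisons of CY262 and CY251 with *age-1(mg44)* ask which of them return when *age-1* is present in 1 tissue only. In whole animals, fewer cells of a type and less RNA per cell cannot be told apart.

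On each array, 86.1% to 92.8% of 21482 spots were well above background in either channel. The dyes were not swapped, so that a dye effect would shift every comparison with wildtype alike, and it cancels between strains. The *age-1* transcript itself was lower than wildtype in all 3 mutant groups, at log2 fold changes of -1.35, -1.47 and -1.45 in *age-1(mg44)*, CY262 and CY251 (limma, adjusted p = 0.0159, 0.00394 and 0.00319). Marker lists moved too: all 26 major sperm protein genes measured were called higher in each mutant group, with median log2 fold changes of 6.48, 6.21 and 6.60, and 5, 8 and 7 of 10 oocyte genes were called lower. Saturated mutant signals among these sperm genes numbered 0 and 1 on the *age-1(mg44)* arrays. They numbered 9, 18 and 0 in CY262 and 14, 11 and 15 in CY251, so that those medians may be too low. Of 7 body wall muscle genes, 1, 5 and 5 were called higher. The part of these shifts in the values below was not tested.

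For 4 of the 8 arrays, the sources disagree on which strain was hybridised. The sample labels and the array files' own names exchange CY262 replicate 2 with CY251 replicate 2, and the deposited table of log ratios places 4 arrays elsewhere. Its columns for CY262 replicates 2 and 3 and CY251 replicates 2 and 3 each equal another array's log ratios in 100% of the shared spots, within a tolerance of 1e-05. For the arrays labelled CY262 replicate 2 and CY251 replicate 2, the table gives the strain of the file name, and only the label differs. For those labelled replicate 3, label and file name match, and only the table differs. The 2 *age-1(mg44)* arrays and replicate 1 of CY262 and of CY251 have the same place in all 3 sources. Values are given with arrays as the sample labels record them, and the other assignments are given where they move a result. The comparison of all CY262 and CY251 arrays with *age-1(mg44)* uses the same arrays under every assignment.

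The 4 *hsp-16* genes encode the heat-inducible HSP-16 proteins. In the reference annotation they lie as neighbouring pairs with 0 genes between them, *hsp-16.1* beside *hsp-16.48* and *hsp-16.2* beside *hsp-16.41*, and *hsp-12.3* and *hsp-12.6* form another such pair. The probe of *hsp-16.1* is annotated also to its copy T27E4.2 (*hsp-16.11*), and that of *hsp-16.48* also to T27E4.9 (*hsp-16.49*), so that the copies cannot be told apart. On the 7 arrays with both spots, the log2 ratios of *hsp-16.41* and *hsp-16.48* differed by 0.03 to 0.12. Those genes lie in different pairs, and whether each probe reads the other's transcript was not tested.

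The *hsp-16* genes were far above wildtype on 1 of the 2 *age-1(mg44)* arrays and near it on the other. The log2 ratio of *hsp-16.48* to wildtype was -0.36 and 5.35 on *age-1(mg44)* replicates 1 and 2, -1.85, 0.09 and 1.64 on CY262 replicates 1 to 3, and -2.82, 1.86 and -0.63 on CY251 replicates 1 to 3. For *hsp-16.41* it was -0.41 and 5.24 in *age-1(mg44)*, 0.06 and 1.52 on CY262 replicates 2 and 3, and -2.90, 1.90 and -0.71 in CY251, the spot of CY262 replicate 1 being left out as an outlier. Both genes were highest on *age-1(mg44)* replicate 2 and lowest on CY251 replicate 1, and the 3 mutant groups overlapped.

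For *hsp-16.1* the log2 ratio was 0.50 and 4.77 in *age-1(mg44)*, -0.74, -0.50 and 1.54 in CY262, and -2.33, 1.78 and -1.27 in CY251. For *hsp-16.2*, the gene whose promoter is widely used as a stress reporter, it was 0.90 and 4.53 in *age-1(mg44)*, 0.01, -0.50 and 0.64 in CY262, and -1.995, 1.72 and -1.50 in CY251. The order of the arrays was nearly that of the other pair, with *age-1(mg44)* replicate 2 at the top and CY251 replicate 1 at the bottom. On *age-1(mg44)* replicate 2 the 4 genes stood 23.0-fold to 40.9-fold above wildtype, and on *age-1(mg44)* replicate 1 between 0.754-fold and 1.86-fold of it.

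**Figure D1:**
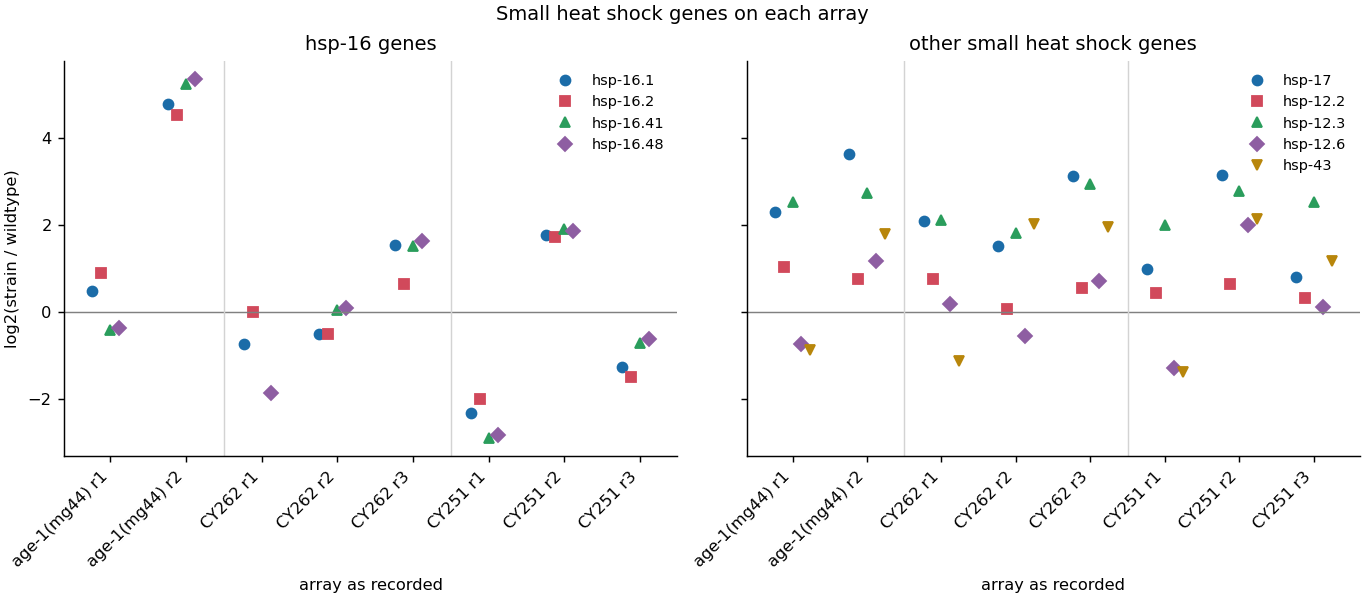
Log2 ratio of strain to wildtype (vertical axis) on each of the 8 arrays as recorded (horizontal axis; r is the replicate number), for the 4 *hsp-16* genes (left) and 5 other members (right); each point is 1 gene on 1 array and the grey line is wildtype. The *hsp-16* genes run together from -2.90 to 5.35, while *hsp-12.3* stays between 1.82 and 2.95.

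Averaged by strain, the *hsp-16* genes were above wildtype in *age-1(mg44)* by 2.42 to 2.71 on the log2 scale, but 0 of the 4 passed the test there, and 1 had an unadjusted p under 0.05. Over all genes, 6556 of 18865 had an unadjusted p under 0.05 there. When each channel was fitted separately, with outlier spots kept, *hsp-16.1* (2.56, adjusted p = 0.0336) and *hsp-16.2* (2.62, adjusted p = 0.0115) passed. That fit, changed after seeing the data to keep outlier spots, called 6699 of 18877 genes, against 3698 of 18865 in the fit to log2 ratios. The change of *hsp-16.2* was 2.71 (6.55-fold, SE 1.08, n = 2, limma, adjusted p = 0.13), with a 95% confidence interval of 0.12 to 5.30. That of *hsp-16.48* was 2.50 (SE 1.59, adjusted p = 0.315), with an interval of -1.32 to 6.31. In CY262 the 4 changes lay between -0.04 and 0.79 and in CY251 between -0.61 and -0.53, and their adjusted p-values were 0.651 or higher. The median of the 4 genes was 2.56, 0.08 and -0.58 in *age-1(mg44)*, CY262 and CY251, beside -0.01 over all genes in each comparison. Without *age-1(mg44)* replicate 2 the change of *hsp-16.48* in *age-1(mg44)* was -0.36, and without replicate 1 it was 5.35.

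Against *age-1(mg44)*, the CY262 and CY251 arrays together were lower in all 4 *hsp-16* genes, and none of the differences passed the test. The log2 difference was -2.98 for *hsp-16.2* (7.90-fold lower, SE 1.25, adjusted p = 0.617), -2.89 for *hsp-16.1* (7.40-fold lower, adjusted p = 0.679), -2.78 for *hsp-16.48* (6.87-fold lower, adjusted p = 0.745) and -2.31 for *hsp-16.41* (4.95-fold lower, adjusted p = 0.798). The 95% interval for *hsp-16.2* ran from -5.97 to 0.01, so that its upper end touches no difference. These differences rest largely on *age-1(mg44)* replicate 2: without that array they were -0.75 for *hsp-16.1*, -1.17 for *hsp-16.2*, 0.52 for *hsp-16.41* and 0.078 for *hsp-16.48*. Of the 10 members 0 were called in this comparison by limma, and 0 had an unadjusted p under 0.05, against a background of 0.0265% of 18862 genes called and 1536 genes with an unadjusted p under 0.05. The separate comparisons with *age-1(mg44)* called 0 members for CY262 (background 0.0265%) and 0 for CY251 (background 0.0053%), each also with 0 members under an unadjusted p of 0.05. CY262 and CY251 differed in 0 members (background 0%, with 150 genes under an unadjusted p of 0.05 and 0 of them members).

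The wildtype channel of the same arrays varied as well, and it varied with the replicate number. The normalized log2 level of *hsp-16.48* in N2 was 13.01, 13.09 and 13.19 on the arrays numbered 1, 10.13, 9.71 and 9.92 on those numbered 2, and 10.71 and 10.53 on those numbered 3, in the order *age-1(mg44)*, CY262 and CY251. Every array numbered 1 was above every other, with no overlap. In the mutant channel the level of *hsp-16.48* was 12.65 and 15.48 in *age-1(mg44)*, 11.24, 9.80 and 12.35 in CY262, and 10.37, 11.78 and 9.91 in CY251. There both *age-1(mg44)* arrays stood above all 6 CY262 and CY251 arrays.

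The 3 other *hsp-16* genes were likewise highest in wildtype on the arrays numbered 1. The mean wildtype level on the arrays numbered 1 was 9.03-fold that on the arrays numbered 2 for *hsp-16.48*, 9.31-fold for *hsp-16.41* (2 arrays numbered 1), 5.02-fold for *hsp-16.1* and 3.29-fold for *hsp-16.2*. The arrays numbered 3 were 1.63-fold to 2.01-fold above those numbered 2. Of 18861 genes, 188 had a wildtype level at least 4-fold higher on the arrays numbered 1 than on those numbered 2, and 4 members were among them, *hsp-16.1*, *hsp-16.41*, *hsp-16.48* and *hsp-43*. The methods give 3 replicates of N2 for the 8 wildtype channels, so that by this count some channels share wildtype RNA. Which of them do is not stated. Over all genes, the deviations of the wildtype channels from their means correlated at 0.63 to 0.857 between arrays of 1 number (7 pairs) and at -0.853 to 0.322 between arrays of different numbers (21 pairs). Other markers moved with the number in the wildtype channel. The mean log2 level of 10 oocyte genes was 11.95 to 12.13 on the arrays numbered 1, 13.33 to 13.42 on those numbered 2 and 12.90 to 13.01 on those numbered 3, and that of 7 muscle genes was 8.48 to 8.54, 9.63 to 9.75 and 8.98 to 9.04; their part in the *hsp-16* levels was not tested.

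**Figure D2:**
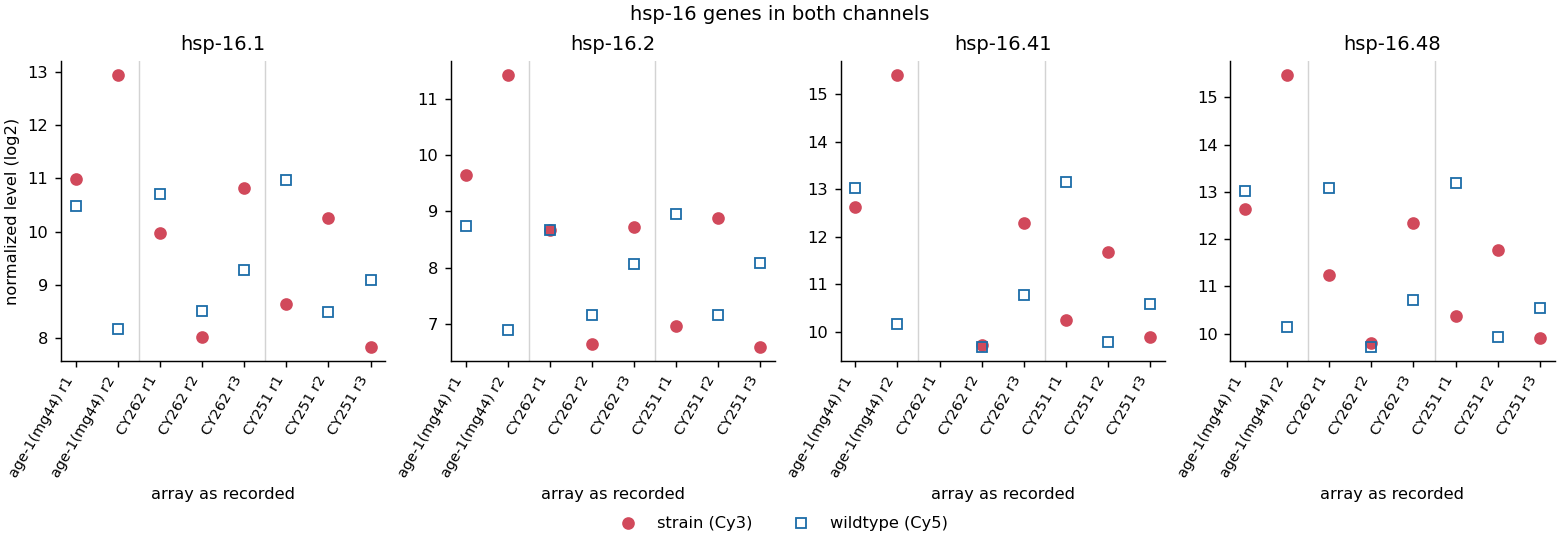
Normalized log2 level (vertical axis) of the 4 *hsp-16* genes on each array as recorded (horizontal axis; r is the replicate number), with the mutant strain in the Cy3 channel as filled circles and wildtype in the Cy5 channel as open squares; *hsp-16.41* has no point on CY262 r1. For *hsp-16.48* the wildtype squares of the arrays numbered 1 lie between 13.01 and 13.19, and the highest circle is *age-1(mg44)* r2 at 15.48.

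In the mutant channel taken by itself, both *age-1(mg44)* arrays were above all CY262 and CY251 arrays in 4 of the 9 members measured on all 8 arrays, *hsp-16.1*, *hsp-16.2*, *hsp-16.48* and *hsp-12.2*, and this held for 10.6% of 18398 genes. The same order was seen for *hsp-16.41* on its 7 arrays. For *hsp-16.1* the mutant level was 10.99 and 12.95 in *age-1(mg44)*, 9.97, 8.02 and 10.81 in CY262, and 8.63, 10.26 and 7.83 in CY251. For *hsp-16.2* it was 9.64 and 11.42, then 8.68, 6.66 and 8.72, then 6.97, 8.88 and 6.59, in the same order. These orders come from mutant levels without a ratio to wildtype, though their normalization used both channels. CY262 and CY251 as recorded overlapped in these levels. The raw mutant signal of the dim *hsp-12.2* did not keep the order, at 479 on *age-1(mg44)* replicate 2 and 481 on CY262 replicate 2. Fitted with limma, CY262 with CY251 against *age-1(mg44)* gave 0 called members (background 0.127%), with adjusted p = 0.198 for *hsp-16.2* and 0.242 for *hsp-16.1*. Under an unadjusted p of 0.05 were 5 members and 2835 of 18862 genes. CY262 against *age-1(mg44)* also gave 0 (background 0.0212%, 4 members under an unadjusted p of 0.05), as did CY251 (background 0.053%, 5 members) and CY262 against CY251 (background 0%, 0 members). Over all genes, 2495, 2524 and 410 were under an unadjusted p of 0.05, in that order.

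The assignment of the arrays decided how CY262 and CY251 compared in the mutant channel. With arrays assigned by file name, the level of *hsp-16.2* was 8.68, 8.72 and 8.88 in CY262 and 6.59, 6.66 and 6.97 in CY251, both ordered from low to high. Its raw mutant signals, in the same order, were 590, 609 and 642 in CY262 and 394, 434 and 404 in CY251. The CY251 signals were thus near the dim end. The groups did not overlap for 6 of the 9 members measured on all 8 arrays, namely *hsp-16.1*, *hsp-16.2*, *hsp-16.48*, *hsp-17*, *hsp-12.2* and *hsp-12.6*, each higher in CY262. Under this assignment 19.2% of 18398 genes did not overlap between CY262 and CY251, in either direction. With arrays as recorded 0 of 9 members were separate (background 6.31%), and with arrays placed as in the deposited table of log ratios 0 of 9 (background 5%).

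Fitted on the mutant channel with arrays assigned by file name, CY251 was below *age-1(mg44)* in 6 members (limma, background 3.96%). These were *hsp-16.1* (-3.81, adjusted p = 0.0159), *hsp-16.2* (-3.80, adjusted p = 0.00979), *hsp-16.41* (-4.06, adjusted p = 0.0366), *hsp-16.48* (-4.04, adjusted p = 0.0302), *hsp-17* (-1.94, adjusted p = 0.0198) and *hsp-12.2* (-0.74, adjusted p = 0.0319). CY262 differed from *age-1(mg44)* in 0 members (background 0.774%), with *hsp-16.2* at -1.78 (adjusted p = 0.112). Under an unadjusted p of 0.05 were 5 members and 3019 of 18865 genes. CY262 and CY251 together were below *age-1(mg44)* in 2 members, *hsp-16.1* (-2.72, adjusted p = 0.0418) and *hsp-16.2* (-2.79, adjusted p = 0.0212), beside a background of 1.89%. CY262 was above CY251 in 1 member, *hsp-17* (1.70, adjusted p = 0.0282, background 1.5%), while *hsp-16.2* differed by 2.02 (adjusted p = 0.0553). With arrays placed as in the table of log ratios, 0 members were called for CY262 and CY251 together (background 0.117%, 5 members under an unadjusted p of 0.05), CY262 (0.0742%, 4 members), CY251 (0.0371%, 5 members) and CY262 against CY251 (0%, 0 members). Over all genes, 2818, 2503, 2368 and 502 were under an unadjusted p of 0.05, in that order.

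**Figure D3:**
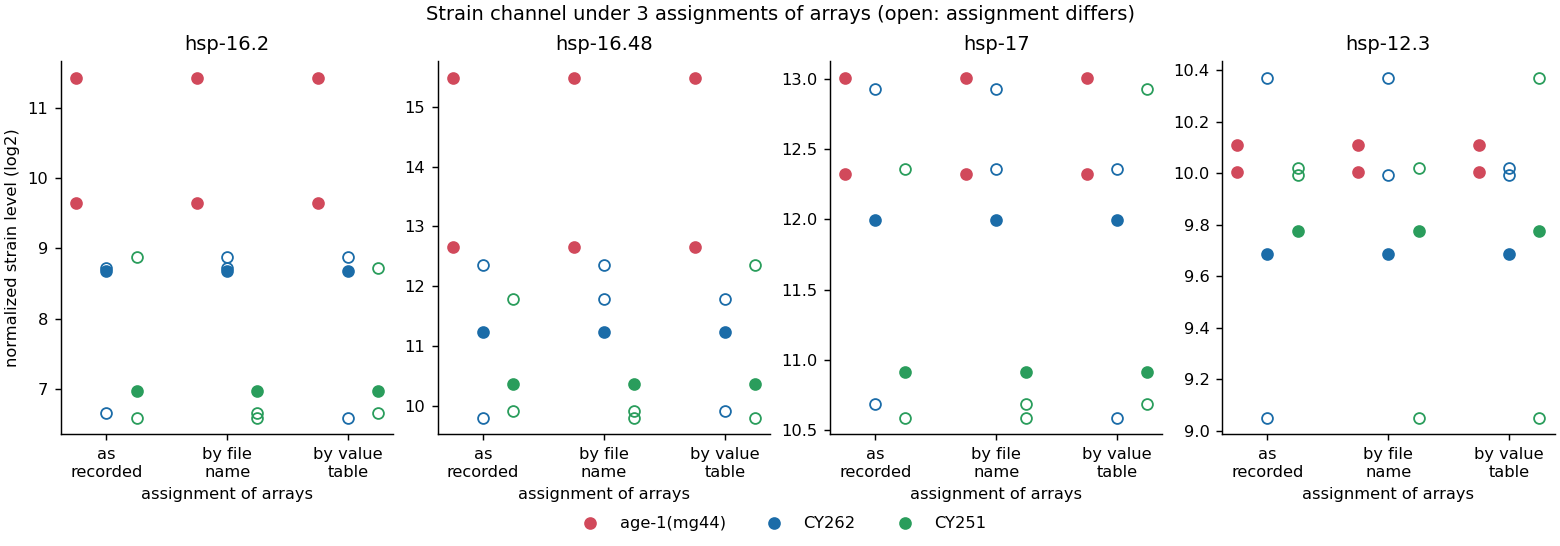
Normalized log2 level in the mutant channel (vertical axis) of *hsp-16.2*, *hsp-16.48*, *hsp-17* and *hsp-12.3* with the arrays assigned in 3 ways (horizontal axis), coloured by strain; each point is 1 array and open points are the 4 arrays whose assignment differs. For *hsp-16.2* by file name, CY262 lies between 8.68 and 8.88 and CY251 between 6.59 and 6.97, whereas the strains overlap under the other assignments. These CY251 points are dim, at raw signals of 394 to 434.

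The *hsp-16* genes had been set apart for how strongly they vary, so their spread is a description. The SD over the 8 wildtype channels (7 for *hsp-16.41*) was 0.807 for *hsp-16.2*, 1.11 for *hsp-16.1*, 1.47 for *hsp-16.41* and 1.53 for *hsp-16.48*, and over the mutant channels it was 1.67, 1.73, 2.01 and 1.87. From its lowest to its highest mutant channel *hsp-16.48* covered a 51.4-fold range, and from its lowest to its highest wildtype channel an 11.1-fold range. The median SD was 1.29 in the wildtype and 1.80 in the mutant channels for the *hsp-16* genes, 0.344 and 0.531 for the 5 others without *sip-1*, whose wildtype signal was saturated, and 0.177 and 0.209 over all 18877 genes, whose 99th percentiles were 1.02 and 0.981. Every *hsp-16* gene exceeded the 99th percentile in the mutant channel, and in the wildtype channel 3 of 4 did, *hsp-16.2* lying between the 95th and 99th. Others did so in 1 channel each, *hsp-17* in the mutant channel (0.987) and *hsp-43* in the wildtype channel (1.13), where it varied more than *hsp-16.1* and *hsp-16.2*.

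Among the others, *hsp-43* and *hsp-17* were opposite in kind. *hsp-43*, which encodes a larger small heat shock protein made without heat, had an SD of 1.13 in the wildtype channel and 0.531 in the mutant channel. *hsp-17* had 0.344 in the wildtype and 0.987 in the mutant channel. The lowest wildtype SD among the members was that of *sip-1*, 0.078, in a channel that was saturated throughout.

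**Figure D4:**
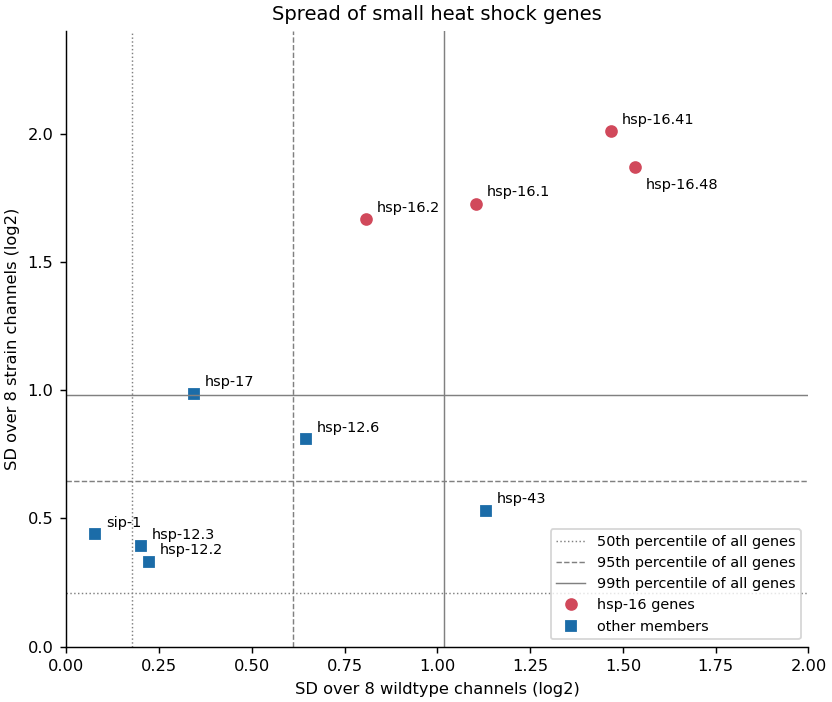
SD of the normalized log2 level over the 8 wildtype channels (horizontal axis) and over the 8 mutant channels (vertical axis; 7 of each for *hsp-16.41*) for the 10 members, with the *hsp-16* genes as circles, the others as squares and grey lines at the 50th, 95th and 99th percentiles of all genes. The *hsp-16* genes lie at the upper right, at 0.807 to 1.53 and 1.67 to 2.01, and *hsp-43* has a wildtype SD of 1.13 with a mutant SD of 0.531.

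The levels of the 4 *hsp-16* genes moved together, with Pearson r of 0.931 to 0.999 for the 6 pairs over 16 channels, 2 on each of 8 arrays. The likeness of the other members to the mean of the *hsp-16* genes (without *hsp-16.41* on CY262 replicate 1) depended on the channel. Over the 8 mutant channels, r was 0.904 for *hsp-12.2*, 0.892 for *hsp-17*, 0.557 for *hsp-12.6*, 0.515 for *hsp-12.3* and 0.184 for *hsp-43*. Over the 8 wildtype channels, it was 0.985 for *hsp-43*, 0.952 for *hsp-12.6*, 0.946 for *hsp-12.3*, 0.882 for *hsp-17* and -0.876 for *hsp-12.2*. Thus *hsp-12.2* followed the *hsp-16* mean in the mutants and ran opposite to it in wildtype, and *hsp-43* followed it in wildtype. The values of *hsp-12.2* come from a dim probe, with a wildtype SD of only 0.224. Its mean wildtype level was 6.69, 7.14 and 6.96 on the arrays numbered 1, 2 and 3. The wildtype channels thus differ by replicate number, and 8 of them are not 8 independent points. Over the 16 channels together, whose means differ, the values were 0.361 for *hsp-12.2*, 0.591 for *hsp-17*, 0.695 for *hsp-12.6*, 0.299 for *hsp-12.3* and 0.563 for *hsp-43*. Of 1972 genes eligible by level and spread, the pattern most like the *hsp-16* mean was that of the heat-inducible cytosolic chaperone gene *hsp-70* (C12C8.1), with r = 0.938 over the 16 channels, 0.969 over the mutant and 0.944 over the wildtype channels. ZC395.5 (0.89), *ttr-32* (0.875), a transthyretin-related gene, *far-5* (0.872), a fatty acid- and retinol-binding protein gene, and C55A6.6 (0.862) followed. These values describe 16 channels that share arrays and, by the methods' count of N2 replicates, wildtype RNA. The log2 change of *hsp-70* (C12C8.1) was 1.68, -0.16 and -1.07 in *age-1(mg44)*, CY262 and CY251, with limma adjusted p-values of 0.272 to 0.889.

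Outside the *hsp-16* genes, 3 members were higher than wildtype in *age-1(mg44)*: *hsp-17*, *hsp-12.2* and *hsp-12.3*. The same 3 were higher in CY262, and *hsp-12.2* and *hsp-12.3* were higher in CY251. Of the 10 members, the tests called 3 in *age-1(mg44)* (background 19.6% of 18865 genes), 3 in CY262 (background 32.4%), 2 in CY251 (background 31%) and 3 in the mean of the 3 mutant groups (background 54.2%), all higher and 0 lower. The share in *age-1(mg44)* is above that over all genes, on 10 members only, and the other shares are close to it or below. Over all genes, 2197, 3426, 3463 and 5310 were called higher in these comparisons, in the same order. The median log2 change of the 5 members outside *hsp-16* other than *sip-1* was 0.91, 0.95 and 0.64 in the 3 groups. The methods' t-test called 0 members in *age-1(mg44)* and in CY262 after adjustment, and in CY251 *hsp-12.3* alone.

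*hsp-12.3* encodes 1 of the short small heat shock proteins of the worm, which are not heat-inducible and lack chaperone activity in vitro. Its log2 ratio was 2.53 and 2.74 in *age-1(mg44)*, 2.12, 1.82 and 2.95 in CY262, and 2.00, 2.79 and 2.52 in CY251. All 8 arrays were well above wildtype and the 3 groups overlapped. The wildtype channel was near the dim end, at raw mean signals of 499 to 692, beside 867 to 1142 in the mutant channel. The change was 2.64 in *age-1(mg44)* (6.21-fold, SE 0.284, adjusted p = 0.00345), 2.30 in CY262 (4.92-fold, SE 0.232, adjusted p = 0.00144) and 2.44 in CY251 (5.42-fold, SE 0.232, adjusted p = 0.000903), all from limma. Without *age-1(mg44)* replicate 2 the change in *age-1(mg44)* was 2.53 and missed the threshold (adjusted p = 0.0604). Without background subtraction the changes were smaller, at 1.48, 1.29 and 1.34, and passed the test. Between CY262 with CY251 and *age-1(mg44)* it differed by -0.27 (95% interval -1.05 to 0.52, adjusted p = 0.874). For scale, the superoxide dismutase gene *sod-3*, a DAF-16 target, changed by 4.49, 4.47 (2 arrays) and 4.48 in the 3 groups.

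*hsp-17* encodes another alpha-crystallin domain protein. Its log2 ratio was 2.29 and 3.63 in *age-1(mg44)*, 2.08, 1.53 and 3.12 in CY262, and 0.998, 3.14 and 0.80 in CY251. Every array was above wildtype, the lowest being CY251 replicates 3 and 1, and the groups overlapped. The change was 2.96 in *age-1(mg44)* (7.78-fold, SE 0.652, adjusted p = 0.0257), 2.24 in CY262 (4.73-fold, SE 0.532, adjusted p = 0.0215) and 1.65 in CY251 (3.13-fold, SE 0.532, adjusted p = 0.0579, which missed the threshold of 0.05). With arrays assigned by file name or by the table of log ratios the CY251 change was 1.11 or 1.88, and it passed the test both times. Leaving out any 1 array of the group ended the call in *age-1(mg44)*, at 3.63 without replicate 1 and 2.29 without replicate 2 (adjusted p = 0.078 and 0.263), and in CY262, at 2.32, 2.60 and 1.81 without replicates 1, 2 and 3 (adjusted p = 0.066, 0.051 and 0.112). CY262 with CY251 differed from *age-1(mg44)* by -1.01 (95% interval -2.82 to 0.79, adjusted p = 0.769).

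*hsp-12.2*, another of the short members, changed little and was dim. Its raw mean signal was 426 to 493 in the mutant and 421 to 494 in the wildtype channels, and its log2 ratio was 1.05 and 0.77 in *age-1(mg44)*, 0.76, 0.06 and 0.56 in CY262, and 0.43, 0.64 and 0.32 in CY251. All arrays lay above wildtype, with CY262 replicate 2 nearly at it and both *age-1(mg44)* arrays above the others. The change was 0.91 in *age-1(mg44)* (1.88-fold, SE 0.172, adjusted p = 0.0164), 0.46 in CY262 (1.37-fold, SE 0.140, adjusted p = 0.0471) and 0.47 in CY251 (1.38-fold, SE 0.140, adjusted p = 0.0466). Both of the last values are close to the threshold. Without background subtraction both were 0.13, and neither passed. With arrays assigned by file name or by the table of log ratios, the CY251 change was 0.27 or 0.35. It missed the threshold both times (limma, adjusted p = 0.0658 and 0.0778). Leaving out either *age-1(mg44)* array ended the call there (0.77 without replicate 1 and 1.05 without replicate 2, adjusted p = 0.129 and 0.108). In CY262 the call was lost without any 1 array other than CY262 replicate 2 (0.31 to 0.46), and in CY251 without any 1 array other than CY262 replicates 1 and 2 (0.38 to 0.54).

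**Figure D5:**
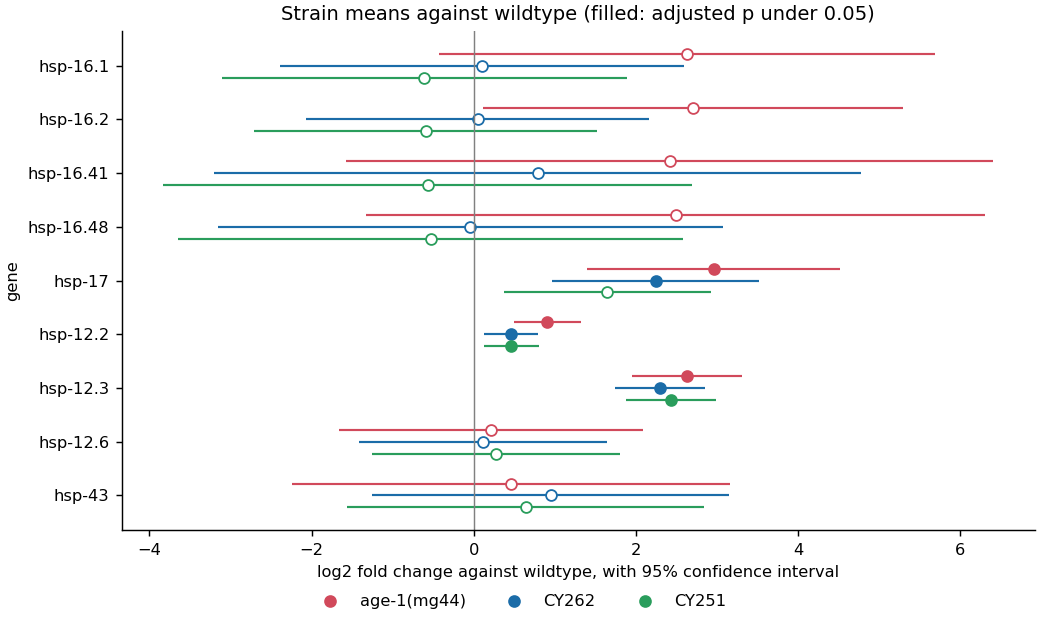
Log2 fold change against wildtype (horizontal axis) with its 95% confidence interval from limma for 9 members (vertical axis), coloured by strain; filled points have an adjusted p under 0.05. *hsp-12.3* lies at 2.30 to 2.64 with narrow intervals, and the intervals of the *hsp-16* genes include 0 except that of *hsp-16.2* in *age-1(mg44)*, at 0.12 to 5.30.

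*hsp-12.6*, the neighbour of *hsp-12.3* and a member known as a DAF-16 target, did not pass the test in any group. It was dim on most arrays, with raw mean signals of 415 to 684 in the mutant and 425 to 841 in the wildtype channels. Its log2 ratio was -0.74 and 1.17 in *age-1(mg44)*, 0.18, -0.54 and 0.71 in CY262, and -1.29, 2.00 and 0.12 in CY251. The values fell on both sides of wildtype in every group. The changes were 0.22, 0.12 and 0.28, with adjusted p-values from limma of 0.778 to 0.903. With arrays assigned by file name the change in CY251 was -0.57.

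*hsp-43* split by replicate number rather than by strain. Its log2 ratio was -0.87 and 1.79 in *age-1(mg44)*, -1.13, 2.02 and 1.96 in CY262, and -1.39, 2.15 and 1.17 in CY251, negative on all 3 arrays numbered 1 and positive on the 5 others. In the wildtype channel its level was 12.59 to 12.66 on the arrays numbered 1, 10.11 to 10.31 on those numbered 2 and 10.97 to 11.01 on those numbered 3. In the mutant channel it was 11.76 and 12.102 in *age-1(mg44)*, 11.46, 12.28 and 12.96 in CY262, and 11.27, 12.25 and 12.14 in CY251. The wildtype values of the arrays numbered 1 were thus 5.28-fold those numbered 2, whereas the mutant values spread over a 3.23-fold range in all. The changes against wildtype were 0.46, 0.95 and 0.64, with adjusted p-values from limma of 0.454 to 0.808.

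*sip-1*, whose product is found in oocytes and embryos, could not be set against wildtype, since its wildtype signal was saturated at 65517 on all 8 arrays. In the mutant channel it was below saturation throughout, with raw mean signals of 46831 and 25256 in *age-1(mg44)*, 48996, 54270 and 24400 in CY262, and 49845, 40207 and 26304 in CY251. The normalized log2 level there was 15.98 and 15.26 in *age-1(mg44)*, 16.07, 15.76 and 14.82 in CY262, and 15.86, 15.68 and 15.20 in CY251. The 3 groups overlapped, and the lowest array was CY262 replicate 3. The mean log2 level of the 10 oocyte genes in the mutant channel was 11.12 in *age-1(mg44)*, 11.16 to 12.01 in CY262 and 11.39 to 11.58 in CY251, and its part in *sip-1* was not tested.

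Further genes of the heat shock network were read from fixed lists. Of 8 other alpha-crystallin genes 6 were measured, and their median log2 changes were 0.77, 0.37 and 0.47 in *age-1(mg44)*, CY262 and CY251. *hsp-25*, a muscle-associated member, was called higher in all 3 groups, at 0.83, 1.40 and 1.48 (limma, adjusted p = 0.0473, 0.00329 and 0.00207). F08H9.4 was called in *age-1(mg44)* alone of the 3, at 1.08 (adjusted p = 0.0483), with 0.14 and 0.20 in CY262 and CY251, where it did not pass.

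In the list of cytosolic chaperones with their regulator, 9 of 11 genes were measured, and in each mutant group 0 were called higher and 4 lower, beside 7.96%, 14.3% and 12.7% of all genes called lower in *age-1(mg44)*, CY262 and CY251. The list medians were -0.54, -0.48 and -0.78. In *age-1(mg44)* the listed genes went both ways, with *hsp-70* (C12C8.1) at 1.68. In CY262 and CY251 all 9 were below wildtype, the highest at -0.066 and -0.018. *hsp-1*, the constitutive Hsp70, was at -2.39, -1.32 and -1.09 (adjusted p = 0.0147, 0.0166 and 0.0155), values that rest on 1 *age-1(mg44)*, 2 CY262 and 3 CY251 arrays, the 2 other spots being left out as outliers, so that the *age-1(mg44)* value has no spread of its own. *hsf-1*, the gene of the heat shock factor, was at -0.79, -0.59 and -0.75 (adjusted p = 0.0152, 0.0124 and 0.00462). The co-chaperone gene *dnj-13* was called lower in each group, joined by *hsp-110* in *age-1(mg44)* and by *hsp-90* in CY262 and CY251. Of 4 chaperone genes of the endoplasmic reticulum and mitochondria, *hsp-4* was called lower in each group, at -0.91, -0.39 and -0.56.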

How the data were processed

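RNA of 3 mutant strains and wildtype was measured on 8 Agilent 2-colour arrays with fixed dyes. The authors deposited raw and processed spot intensity values of Agilent Feature Extraction A.7.5.1 and its log10 ratios, per the file headers, and a table of log10 ratios for part of the spots. The methods give biological replicates, and p-values measure only the spread between these samples; the number of arrays limits the precision.

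In R 4.3.3 with limma 3.58.1 (statmod 1.5.0), raw mean intensity was corrected by normexp (offset 50) and loess within each array, outlier spots were left out, and the brightest of several probes stood for a gene (823 genes). A filter at a mean raw wildtype signal of 100 removed 0 of 20401 probes, and 564 probes that lack a sequence name were left out. Channel levels were set to a common scale (Aquantile). One model with 1 mean per strain was fitted to all genes, and p-values were Benjamini-Hochberg adjusted over all genes (threshold 0.05). Names of 18124 genes matched the RefSeq table of assembly WBcel235, used for names and neighbours only; the array's build is not given in the sources used here. The fit was tested on simulated data.

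The 10 members, the lists and the comparison of the *hsp-16* genes with the rest were chosen with earlier results of these data known. All members are named whatever their values; the genes most like the *hsp-16* mean were the 8 non-members with the highest Pearson r over 16 channels, among genes well above background in at least 8 channels and with an SD of at least 50% of that mean's. Feature extraction fell on 2 days, the rarer day holding 1 array, CY262 replicate 2, so that a block for it equals leaving that array out. Alternatives covered background correction, scaling, outlier spots, variance model, replicate block, assignment and omission of arrays, and the fit by channel.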

Additional observations from a re-analysis of the deposited data

How the results depend on the processing

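The comparisons were repeated under 26 alternatives against wildtype and 29 between strains, and of 1404 values for 54 results 1277 kept direction and side of the threshold, 39 were no longer past it, 36 newly were and 52 changed sign. The fits by file name with the block, by separate channel, on the mutant channel alone and with CY262 and CY251 as 1 group were chosen after seeing the data, or, for the separate-channel fit, changed then to keep outlier spots. *hsp-12.3* was above wildtype in all 3 groups under every alternative run, by 1.48 to 3.06 in *age-1(mg44)*, 1.29 to 2.67 in CY262 and 1.34 to 2.84 in CY251, but the methods' t-test did not call it in *age-1(mg44)* or CY262 (adjusted p = 0.108 and 0.0751). The causes of the changes below were not tested.

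Against wildtype, 3, 3 and 2 members were called in *age-1(mg44)*, CY262 and CY251, and 3 in their mean. By file name with the replicate block these counts were 8, 5, 6 and 7, and all 4 *hsp-16* genes were called higher in *age-1(mg44)* (adjusted p = 0.00535 to 0.0192). Over all genes that fit called 8069 of 18865, 11130 of 18877, 9597 of 18877 and 12996 of 18865. The separate-channel fit called 5 in *age-1(mg44)*, adding *hsp-16.1* and *hsp-16.2*, beside 6699 of 18877 genes in all. In CY251, no background subtraction and Agilent's deposited log ratio gave 1 each, beside 5110 and 7436 of 18873 genes. The methods' t-test gave 0, 0, 1 and 3 after Benjamini-Hochberg adjustment and 3, 2, 2 and 3 at their unadjusted threshold. Over all genes it gave 2, 107, 2224 and 8886 after adjustment and 3571, 5050, 5630 and 10133 unadjusted. Between strains 0 members were called, except with arrays by file name. With the block 2 were called for CY262 with CY251 and 5 for CY251 against *age-1(mg44)*, beside 736 and 1146 genes in all. On the mutant channel alone 2, 6 and, for CY262 against CY251, 1 were called, beside 356, 747 and 283 genes. Between strains the methods' t-test called 0 members after adjustment, and unadjusted 5 for CY262 with CY251, 1 for CY262 and 0 for the others. Unadjusted, it held 2695 genes for CY262 with CY251, 1608 for CY262, 2416 for CY251 and 522 for CY262 against CY251. Scaling the processed signal to its 75th percentile moved the median mutant SD of the *hsp-16* genes from 1.80 to 2.01.

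The replicate number was not taken as a pairing, since the ratios of same-numbered arrays deviated together at r from -0.161 to 0.785 as recorded (0.382 to 0.85 by file name). The value -0.161 was that of CY262 replicate 2 with CY251 replicate 2, which the file names exchange. The other same-numbered pairs lay between 0.232 and 0.785. The replicate block as recorded called 4, 3, 2 and 4 members against wildtype and 0 between strains, gaining *hsp-43* in the 3 groups (0.84, 0.95 and 0.64, adjusted p = 0.0471, 0.0113 and 0.0332) and losing *hsp-12.2* in CY262 and CY251, and over all genes it called 5717, 9023, 8602 and 12023. With CY262 and CY251 as 1 group, 3 members were called in *age-1(mg44)* and 0 between strains, with or without the 4 arrays of differing assignment.

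Over all alternatives, the genes called were 2 to 11256 in *age-1(mg44)* (3698 as reported), 107 to 11815 in CY262 (6121), 2224 to 12516 in CY251 (5860) and 7770 to 14994 in their mean (10216); between strains they were 0 to 736 for CY262 with CY251 (5), 0 to 307 for CY262 (5) and 0 to 1146 for CY251 (1) against *age-1(mg44)*, and 0 to 286 for CY262 against CY251 (0). Of the called genes, the share that was higher fell from 59.4% to 48.9% in *age-1(mg44)* with median centring, and with Agilent's log ratio from 59.1% to 44% in CY251 and from 52% to 42% in the mean; that ratio put the median of all genes in CY251 at -0.10.

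These log2 fold changes changed sign. With median centring, *hsp-43* was -0.44 in *age-1(mg44)* and -0.33 in CY251, and *hsp-16.1*, *hsp-16.2* and *hsp-16.41* were -0.57, -0.20 and -0.13 in CY262. There, Agilent's log ratio gave -0.043 for *hsp-16.1* and -0.15 for *hsp-16.2*, its processed signals -0.082 for *hsp-16.2*, and the value table's assignment -0.077 for *hsp-16.1*. *hsp-16.41* was -0.06 in CY262 with outlier spots kept, -0.63 with the replicate block and -0.14 in the separate-channel fit. By file name, with or without the block, *hsp-16.48* was 0.55 in CY262 and *hsp-12.6* -0.57 in CY251, where the value table's assignment gave -0.37. Between CY262 with CY251 and *age-1(mg44)*, *hsp-12.6* was 0.052 without background subtraction and 0.078 with median centring, and *hsp-43* -0.044 with the block, either way assigned, and -1.72 without the 4 arrays of differing assignment. *hsp-16.41* was -0.058 between CY262 and CY251 with the block.

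Leaving out each array in turn (a lone remaining array being assumed to vary like the other groups) gave 0 to 3 members called in *age-1(mg44)*, 1 to 2 in CY262, 1 to 2 in CY251, 3 in their mean and 0 between strains. In *age-1(mg44)* the change then ran from -0.41 to 5.24 for *hsp-16.41*, -0.36 to 5.35 for *hsp-16.48*, -0.74 to 1.17 for *hsp-12.6* and -0.87 to 1.79 for *hsp-43*. In CY262 it ran from -0.62 to 0.52 for *hsp-16.1*, -0.25 to 0.33 for *hsp-16.2*, -0.88 to 0.86 for *hsp-16.48* and -0.18 to 0.44 for *hsp-12.6*. In CY251 it ran from -1.80 to 0.25 for *hsp-16.1*, -1.745 to 0.11 for *hsp-16.2*, -1.805 to 0.60 for *hsp-16.41*, -1.72 to 0.615 for *hsp-16.48*, -0.58 to 1.06 for *hsp-12.6* and -0.11 to 1.66 for *hsp-43*. Between CY262 with CY251 and *age-1(mg44)* it ran from -5.13 to 0.52 for *hsp-16.41*, -5.64 to 0.078 for *hsp-16.48*, -0.98 to 0.93 for *hsp-12.6* and -0.99 to 1.67 for *hsp-43*. For CY262 against *age-1(mg44)* it ran from -4.45 to 1.197 for *hsp-16.41* and -5.395 to 0.32 for *hsp-16.48*, and for CY262 against CY251 from -0.15 to 1.905 for *hsp-16.1*, -0.06 to 1.80 for *hsp-16.2* and -0.66 to 1.68 for *hsp-16.48*. A block for the day of feature extraction was not run, as it equals leaving out CY262 replicate 2. The number of arrays limits every comparison, and the saturated wildtype signal bars one for *sip-1*. The probes of *hsp-12.2*, of *hsp-12.6* on most arrays, of *hsp-12.3* in the wildtype channel and of *hsp-16.2* in some channels were near the dim end.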
